A study of Mus musculus with 17 samples.

Results

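Sirt6 peaks that carried an H3K56ac peak but no H3K9ac peak made up 318 of the 14510 peaks of the wild-type Sirt6 list, or 2.19% (Wilson 95% interval 1.97 to 2.44). They were chosen by the measured peak calls themselves: a Sirt6 peak was kept if a peak of any of 4 H3K56ac lists overlapped it by 1 bp or more and no peak of 4 H3K9ac lists did. The presence of H3K56ac and the absence of H3K9ac at them are therefore given and not found. They were 41.6% (38.2 to 45.2) of the 764 Sirt6 peaks with any H3K56ac call.

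Sirt6 is a NAD-dependent deacetylase that binds chromatin and removes acetyl groups from lysine 9 and lysine 56 of histone H3. H3K9ac marks active promoters and enhancers, while H3K56ac lies in the globular core of the histone, is placed on newly made histones and has also been mapped at regulatory elements in embryonic stem cells. Retinoic acid drives such cells out of the pluripotent state.

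The study ran chromatin immunoprecipitation with sequencing (ChIP-seq) on mouse embryonic stem cells of strain 129. For each of H3K56ac and H3K9ac there were 4 libraries, from Sirt6 knockout (KO) cells given retinoic acid (RA), wild-type (WT) cells given RA, untreated KO cells and untreated WT cells. RA came from a 0.01 M stock used at a 10000-fold dilution for 2 days, with harvest the day after its removal; the RA medium also lacked leukemia inhibitory factor (LIF), which the maintenance medium held, so RA and LIF withdrawal cannot be told apart. All cells were kept on irradiated fibroblast feeders, which were removed by brief plating. Sirt6 was profiled in untreated cells only, with 2 KO libraries and 1 WT library. The 2 KO libraries differed in the amount of Sirt6 antibody and are not replicates. The WT library used the lower amount. Both KO libraries gave 0 peaks and the WT library gave 14510 at the same q limit. The genotypes differed in depth and had separate controls, so these counts are not a like-for-like comparison. The sites described are those of WT cells, and a KO value is the acetylation call in KO cells at a site with a Sirt6 peak in WT cells. The labels do not say how many clones or animals the cells came from.

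Each group held 1 library, so no difference between conditions has a replicate check, no test was made, and every interval covers counting error only. Peaks of 1 list share a library and are not replicates. The H3K56ac libraries held 5782181 to 7790807 tags after filtering and gave 2063 to 2750 peaks. The WT Sirt6 library held 2008232 tags, against 6251712 in its whole-cell extract control. The KO Sirt6 libraries held 40006795 and 48956556 tags, against 5113859 in theirs. No control entered the calling of the acetylation lists. Fold enrichment, −log10 q and pileup (the fragments stacked at the summit) are the authors' own values for each peak and are read here only within a list. Positions are in mouse build mm9. Genes and sequences at these sites were not analysed here.

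Untreated KO cells supplied most of the H3K56ac calls at these sites. The untreated KO list called 219 of the 318, or 68.9% (63.6 to 73.7), against 69 in the untreated WT list, or 21.7% (17.5 to 26.6). Of all Sirt6 peaks, 4.03% were called in the untreated KO list and 2.2% in the untreated WT list. The KO to WT ratio was 3.17 at these sites (exact interval 2.41 to 4.22). Over all Sirt6 peaks with a call, these sites included, it was 1.83, from 585 in KO and 319 in WT. The whole lists ran the other way, with 2235 peaks in KO and 2750 in WT, a ratio of 0.813, and so did the tags, with a ratio of 0.742. The size of the KO to WT ratio at the sites depended on the weak peaks kept: it was 1.80 (0.542 to 6.84, from 9 sites in KO and 5 in WT) with H3K56ac held to a −log10 q of 10 or more, and 1.44 (0.571 to 3.83, from 13 and 9) with every list so held. Both intervals include 1 and 3.17. It was 42.8 (16.4 to 158.7, from 171 and 4) with lists cut to equal length. That cut kept the 2063 peaks of highest −log10 q in each H3K56ac list, the length of the RA-treated WT list. The RA-treated WT list thus lost no peak, and the untreated WT list lost the most.

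Few sites were called in both untreated lists. There were 207 sites called in KO and not in WT, 57 called in WT and not in KO, and 12 called in both. Over all Sirt6 peaks, 2.53% were called in untreated KO but not WT and 0.696% in untreated WT but not KO. Those were 367 of the 585 called in untreated KO and 101 of the 319 called in untreated WT. Because the H3K56ac calls chose the sites, these splits describe them and carry no test. The rule also kept out the 135 Sirt6 peaks in all 8 acetylation lists, so the low number of sites in both was partly given.

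Under RA the genotypes gave equal numbers. The RA-treated KO list called 26 of the 318 sites, or 8.18% (5.64 to 11.7), and the RA-treated WT list also called 26. Over all Sirt6 peaks the shares were 1.84% in RA-treated KO and 1.71% in RA-treated WT. The KO to WT ratio was 1.00 (0.558 to 1.79), with 21 sites called in KO only, 21 in WT only and 5 in both. With lists cut to equal length it was 0.132, from 5 sites in KO and 38 in WT, and with every list held to a −log10 q of 10 or more it was 0.500 (0.00847 to 9.60), from 1 site in KO and 2 in WT. The rule kept out the 135 Sirt6 peaks in all 8 acetylation lists, so the low number of sites in both RA lists was partly given. That number is not given here over all Sirt6 peaks.

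Set against untreated cells of the same genotype, RA-treated cells had fewer calls in both genotypes. In KO cells the counts were 26 with RA and 219 untreated, a ratio of 0.119 (0.0759 to 0.179), and only 1 site was in both lists. In WT cells they were 26 with RA and 69 untreated, a ratio of 0.377 (0.230 to 0.599), with 2 sites in both lists. The low numbers in both lists were partly given, since the rule kept out the 135 Sirt6 peaks in all 8 acetylation lists. They are not given here over all Sirt6 peaks. Over all Sirt6 peaks, the chosen sites included, the RA to untreated ratios were 0.456 in KO and 0.777 in WT. The whole lists had ratios of 1.00 in KO and 0.750 in WT. The KO ratio was 0.0292 with lists cut to equal length, while the WT ratio turned round to 9.5 there, from 38 sites with RA and 4 untreated; with every list held to a −log10 q of 10 or more the WT ratio was 0.222 (0.0234 to 1.07), from 2 sites with RA and 9 untreated.

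**Figure D1:**
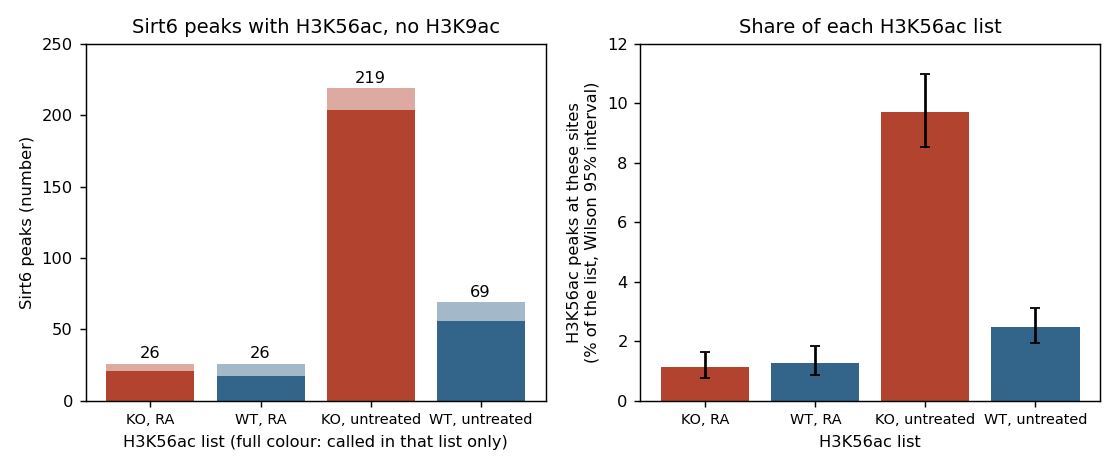
Left, the number of Sirt6 peaks with H3K56ac and no H3K9ac that each H3K56ac list called, with those called in that list only in full colour and those also called in another list in pale colour; right, the share of each whole H3K56ac list that lay at these sites (%), with Wilson 95% intervals for counting error. The untreated KO list reached 219 sites and 9.71% of its peaks, against 69 sites and 2.47% in the untreated WT list and 26 sites in each RA list.

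Untreated KO also stood highest in the share of each H3K56ac list. Of the H3K56ac peaks of the RA-treated KO list, 1.12% (0.757 to 1.64) lay at these sites, against 1.26% (0.862 to 1.84) of the RA-treated WT list. The share was 9.71% (8.55 to 11.01) in the untreated KO list, against 2.47% (1.96 to 3.12) in the untreated WT list. Over all Sirt6 peaks the untreated KO list also stood highest: 11.97% of the RA-treated KO list, 12.3% of the RA-treated WT list, 26.3% of the untreated KO list and 11.7% of the untreated WT list lay at a Sirt6 peak of any kind.

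The count of sites rested on the untreated KO libraries more than on any other. Without the untreated KO H3K56ac list 114 sites were left, and without the untreated KO H3K9ac list, which keeps sites out, there were 535. Leaving out any other single list gave 262 to 322 sites. The untreated KO H3K9ac list behaved alike at the Sirt6 peaks with H3K9ac and no H3K56ac: it called 916 of those 957.

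Nearly every site was called in a single H3K56ac list. There were 298 sites in 1 list, 18 in 2 lists, 2 in 3 lists and 0 of 318 in all 4, which allows a share of up to 0.943%. Of the 764 Sirt6 peaks with any H3K56ac call, 135 were in all 8 acetylation lists, and the rule keeps those out. The lack of sites in all 4 H3K56ac lists and the high share in 1 list were therefore partly given. The number of lists per peak is not given here for the other Sirt6 peaks with an H3K56ac call. The untreated KO list alone accounted for 204 sites and the untreated WT list alone for 56. The RA-treated KO list alone accounted for 21 sites and the RA-treated WT list alone for 17. The 11 sites called in both untreated lists and in neither RA list had a median Sirt6 fold of 14.4 and a median length of 954 bp, against 10.6 and 555 bp for the 204 called in untreated KO alone, and 12.1 and 622.5 bp for the 56 called in untreated WT alone.

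The 2 sites called in 3 lists are named although they were picked after their values were seen. At chr8:59990612-59991108 (Sirt6 fold 18.3) the H3K56ac fold was 5.87 in the RA-treated WT list, 6.34 in the untreated KO list and 7.69 in the untreated WT list. At chr1:58480253-58480832 (Sirt6 fold 14.003) it was 5.77 in the RA-treated KO list, 6.65 in the RA-treated WT list and 5.91 in the untreated KO list. At both sites each H3K56ac summit lay within 47 bp of the Sirt6 summit.

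The Sirt6 peaks themselves were stronger and longer than most of their list. Neither measure was a term of the rule, but length bears on it, since an overlap chose the sites. Their Sirt6 fold ranged from 3.30 to 26.2 with a median of 11.3 (quartiles 8.94 and 13.7), against a median of 8.01 over the other 14192 Sirt6 peaks. Their length had a median of 593.5 bp (quartiles 449.25 and 789.75), against 380 bp for the others. Pileup at the summit had a median of 14 fragments, against 10 for the others.

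They resembled the other Sirt6 peaks with a partial acetylation call more than the rest. The 957 peaks with H3K9ac and no H3K56ac had a median fold of 10.6 and a median length of 576 bp. The 311 peaks with both marks, leaving aside those in all 8 acetylation lists, had 12.1 and 556 bp. The 12789 peaks with neither mark had 7.57 and 368 bp, and the 135 peaks called in all 8 lists had the lowest median fold, 4.93, and the highest median pileup, 73 fragments. With 1 WT Sirt6 library these differences could not be tested. The difference in median fold between the sites and the other Sirt6 peaks was 3.29, and 1.22 among Sirt6 peaks with a −log10 q of 10 or more. The difference in median length was 213.5 bp, 106 bp with Sirt6 peaks so held, 40.5 bp with H3K56ac peaks so held, and −11 bp with every list so held.

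**Figure D2:**
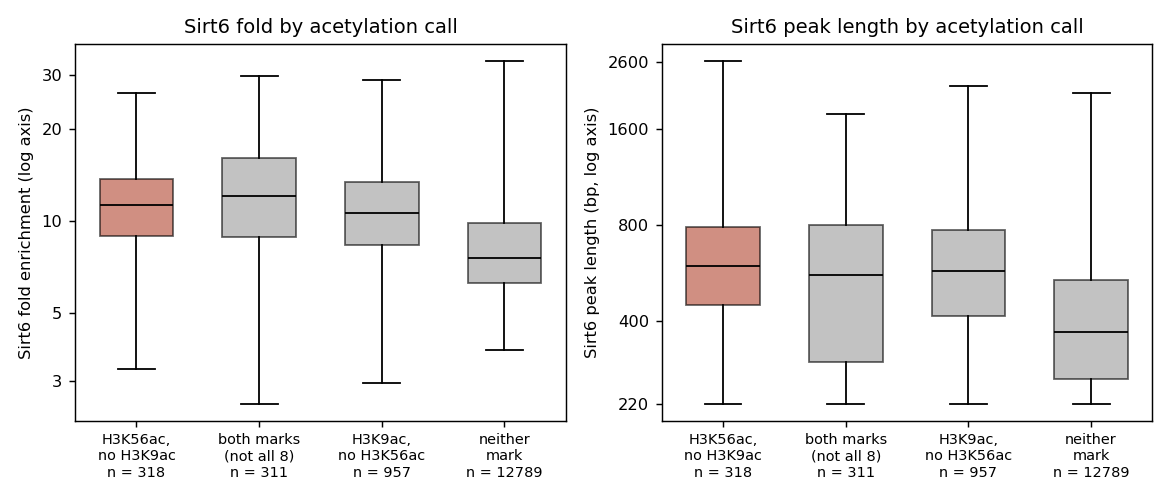
Sirt6 fold enrichment (left) and Sirt6 peak length in bp (right), both on log axes, for Sirt6 peaks with H3K56ac and no H3K9ac (n = 318), with both marks but not in all 8 lists (n = 311), with H3K9ac and no H3K56ac (n = 957) and with neither mark (n = 12789). Boxes span the quartiles, the line is the median and whiskers reach the lowest and highest peak; the first 3 classes have medians of 10.6 to 12.1 in fold, against 7.57 with neither mark.

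A longer peak can be overlapped more easily, so the share of chosen sites was also read within quartiles of Sirt6 peak length. From the shortest to the longest quartile it was 0.496%, 0.937%, 2.65% and 4.69%, or 18, 34, 96 and 170 sites. Within the shortest quartile the median Sirt6 fold was 6.09 at chosen sites and 6.05 at the others. It was 8.99 against 7.31 in the second quartile, 10.5 against 8.89 in the third and 12.3 against 11.3 in the longest. The difference in fold was thus smaller within length quartiles than over the whole list, where the medians were 11.3 and 8.01. By quartile of Sirt6 fold the counts were 26, 25, 82 and 185 sites.

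The 10 sites with the highest Sirt6 fold lay on chromosomes 1, 4, 8, 11, 12 and 14. The first was chr14:121777441-121778388, 948 bp long with a Sirt6 fold of 26.2 and a pileup of 42, and its single H3K56ac call was in RA-treated WT cells at a fold of 4.46. It was followed by chr8:114167371-114167798 (Sirt6 fold 26.0), chr12:113883076-113883927 (25.1) and chr11:88921119-88921883 (24.2). Each of those 3 was called in untreated KO cells alone, at H3K56ac folds of 6.33, 6.51 and 5.86. By fold these 4 H3K56ac peaks stood at percentiles 1.70, 15.8, 17.6 and 10.8 of their own lists.

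The other 6 sites were called in several combinations of genotype and treatment. The longest of all, chr14:106293646-106296267 (2622 bp, Sirt6 fold 23.99), and chr14:87540394-87541107 (21.9) were called in untreated WT alone, at H3K56ac folds of 4.53 and 5.03. The site chr8:109579544-109580679 (21.9) was called with RA in both genotypes, at 6.12 in KO and 5.92 in WT. Untreated cells of both genotypes had a call at chr14:62266220-62267668 (21.9), at 6.95 in KO and 8.28 in WT, and at chr1:78654503-78655520 (21.0), at 5.81 in KO and 5.14 in WT. The tenth, chr4:135608657-135609254 (20.2), held 2 untreated KO peaks, at 5.18 and 5.22.

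The call patterns with 10 or more sites were led by some of the same sites and by others. Among sites called in RA-treated KO alone the highest Sirt6 folds were 18.6 at chr1:74283108-74283987, 17.0 at chr2:74663789-74664496 and 15.1 at chr7:20146812-20147758. Among those called in RA-treated WT alone, chr14:121777441-121778388 was followed by chr8:73033064-73035085 (16.6) and chr19:57435702-57436361 (14.6). The third site called in untreated WT alone was chr8:108160860-108161385 (19.7), and the third called in both untreated lists was chr14:55304601-55305726 (18.2).

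The H3K56ac peaks at these sites came from the weak end of their lists. Their median −log10 q was 5.65 in RA-treated KO (n = 25 peaks), 5.90 in RA-treated WT (n = 26), 6.13 in untreated KO (n = 217) and 6.14 in untreated WT (n = 68). The medians of the whole lists were 17.9 in RA-treated KO, 18.5 in RA-treated WT, 14.9 in untreated KO and 17.9 in untreated WT. Ranked by −log10 q within its own list, the median peak at a chosen site stood at percentile 1.88 in RA-treated KO, 1.83 in RA-treated WT, 9.62 in untreated KO and 3.16 in untreated WT. At the Sirt6 peaks with both marks, leaving aside those in all 8 lists, the median percentiles were 41.0, 22.2, 22.4 and 20.5 in the same order, lower than the middle of the list but above the chosen sites. At the Sirt6 peaks in all 8 lists they were 92.1, 88.9, 94.0 and 91.3. The rule keeps those peaks out, so the low strength at the chosen sites was partly given. Weak calls also marked the Sirt6 peaks with H3K9ac and no H3K56ac: their untreated KO H3K9ac peaks had a median −log10 q of 6.11, against 11.1 over that H3K9ac list.

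Their fold and pileup were low as well. The median H3K56ac fold at the sites was 5.77 in RA-treated KO, 6.04 in RA-treated WT, 5.96 in untreated KO and 6.12 in untreated WT, against whole-list medians of 10.9, 11.3, 10.0 and 11.3 in the same order. The median pileup was 14 fragments in untreated KO and 12 in each of the other lists, where the lowest peak of any list had 8. A −log10 q of 10 or more was reached by 9 of 217 peaks at the sites in untreated KO, against 1536 of 2235 in that whole list, and by 5 of 68 in untreated WT, against 2248 of 2750. It was reached by 0 of 25 in RA-treated KO and 0 of 26 in RA-treated WT, which allow shares of up to 12% and 11.5%. With H3K56ac held to that limit only 14 sites were left.

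**Figure D3:**
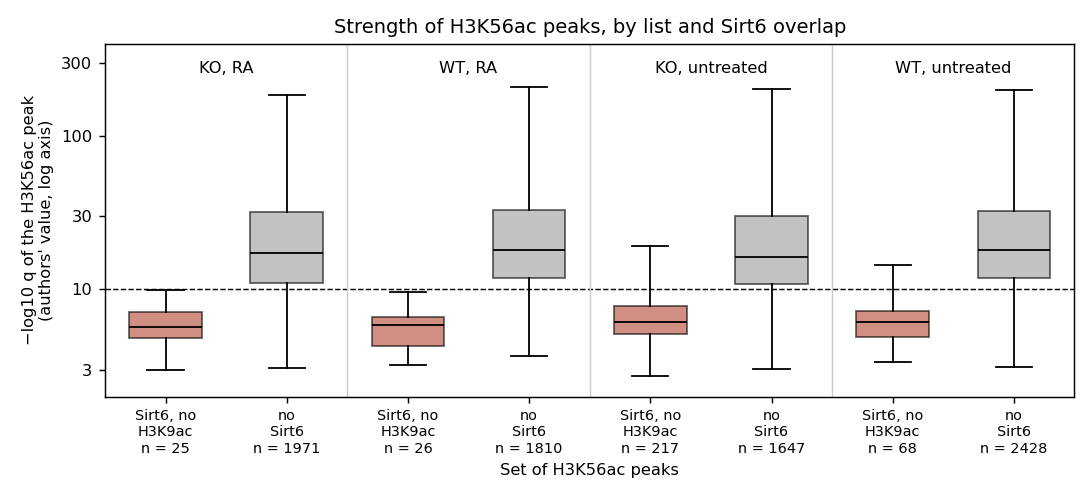
−log10 q of H3K56ac peaks (the authors' value, log axis) in each of the 4 H3K56ac lists, for peaks at Sirt6 peaks with no H3K9ac (red) and peaks at no Sirt6 peak (grey); boxes span the quartiles, whiskers the full range, and the dashed line marks 10. In every list the upper quartile of the red box lies under the lower quartile of the grey box, and no red peak of either RA list reaches 10. Grey peaks were not filtered for H3K9ac.

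The strongest H3K56ac peaks at the sites remained in the middle or lower part of their lists. In untreated KO they lay at chr4:35489914-35490163 with a fold of 11.2, at chr7:17200099-17200517 with 9.82 and at chr1:120024852-120025071 with 9.44. In untreated WT they lay at chr14:62266220-62267668 with 8.28, at chr8:72240378-72240751 with 7.89 and at chr5:30969272-30969829 with 7.72. The highest of these, at 11.2, stood at percentile 58.4 of the untreated KO list by fold.

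The same held under RA. In RA-treated KO the highest folds were 7.78 at chr7:51559759-51560288, 6.98 at chr4:47487743-47488095 and 6.86 at chr10:128062957-128063267. In RA-treated WT they were 7.85 at chr17:56904167-56904532, 7.24 at chr13:24852849-24854032 and 7.16 at chr2:119698614-119698865. By fold, the highest of the 6 within its own list was the peak on chromosome 7, at percentile 20.1.

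Weak H3K56ac peaks, those with a −log10 q under 10, were therefore examined on their own. Of the weak peaks of the RA-treated KO list 5.21% (3.55 to 7.58) lay at the chosen sites, and of those of the RA-treated WT list 7.07% (4.87 to 10.15). The share was 29.8% (26.5 to 33.2) in untreated KO, 208 of 699, against 12.5% (9.93 to 15.7) in untreated WT, 63 of 502. At Sirt6 peaks of any kind the shares were 13.75% and 19.02% in RA-treated KO and WT, and 50.4% and 23.7% in untreated KO and WT. The high share of weak untreated KO peaks thus covered Sirt6 peaks in general.

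Weak untreated KO peaks at the chosen sites were seldom found again in another list, and those at the other Sirt6 peaks were found again less often than those away from Sirt6. Of the 208 in untreated KO, 0.481% (0.0849 to 2.67) were overlapped by an RA-treated KO peak, 1.92% (0.750 to 4.84) by an RA-treated WT peak and 5.77% (3.33 to 9.81) by an untreated WT peak. For the 347 weak untreated KO peaks at no Sirt6 peak the same shares were 52.7%, 40.3% and 42.4%. For the 144 weak untreated KO peaks at other Sirt6 peaks they were 11.1%, 10.4% and 17.4%, closer to the chosen sites than to the peaks away from Sirt6. The rule kept out sites with an H3K9ac call, while the peaks at no Sirt6 peak were not filtered for H3K9ac. The low shares at the chosen sites may thus be partly given, and no test was made, since all come from 1 library.

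In untreated WT the picture differed between partners. Of its 63 weak peaks at the sites, 0 were overlapped by an RA-treated KO peak, which allows up to 4.76%, and 1.59% by an RA-treated WT peak, against 25.8% and 22.7% of its 383 weak peaks at no Sirt6 peak. By an untreated KO peak, 15.9% (8.86 to 26.8) of the 63 were overlapped, against 17.8% (14.3 to 21.9) of the 383 and 42.9% of the 56 weak peaks at other Sirt6 peaks. Between the RA lists, 5 of the 25 weak KO peaks at the sites were overlapped in WT, against 39.6% of the 414 at no Sirt6 peak and 6 of the 41 at other Sirt6 peaks. Here too the peaks at no Sirt6 peak were not filtered for H3K9ac.

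**Figure D4:**
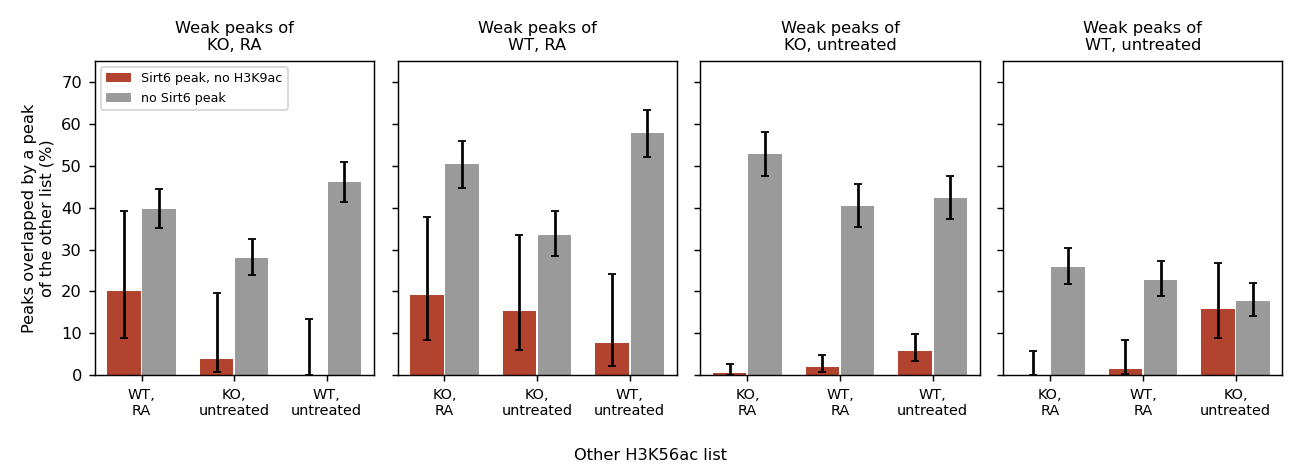
Share (%) of weak H3K56ac peaks (−log10 q under 10) of 1 list that a peak of each other H3K56ac list overlapped, for weak peaks at Sirt6 peaks with no H3K9ac (red) and at no Sirt6 peak (grey), with Wilson 95% intervals for counting error. Red bars lie under grey bars in every pairing shown, and for untreated WT peaks set against the untreated KO list the values are 15.9% and 17.8%. Grey peaks were not filtered for H3K9ac.

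H3K56ac and Sirt6 summits lay close together. Over 341 pairs of a site and an H3K56ac peak the median distance between summits was 67 bp (quartiles 32 and 139), and 219 pairs, 64.2%, lay within 100 bp. By list the median was 61.5 bp in RA-treated KO, 59.5 bp in RA-treated WT, 70.5 bp in untreated KO and 65 bp in untreated WT. At the Sirt6 peaks with both marks it was shorter in each list, 28, 37, 36 and 40.5 bp in the same order. The H3K56ac summit fell inside the Sirt6 peak in 326 pairs, 95.6%, and the whole H3K56ac peak did so in 274, 80.4%. Since an overlap chose the sites, a short distance was partly given.

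No H3K9ac peak lay near most sites, which was partly given, since the rule kept out Sirt6 peaks with an H3K9ac overlap. The distance is not given here for other Sirt6 peaks. The nearest peak of any H3K9ac list was a median 169915 bp from a chosen site. An H3K9ac peak lay within 1000 bp of 8 sites and within 10000 bp of 16. The closest, at 24 bp, was at chr5:105322621-105323033, a site called in untreated KO with an H3K56ac fold of 7.12. At the edge of the rule, the smallest H3K9ac overlap that kept a Sirt6 peak out was 68 bp, at chr3:51220147-51220366 (Sirt6 fold 6.05).

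The edge on the H3K56ac side was thinly filled. The smallest overlap that brought a Sirt6 peak in was 14 bp, at chrX:17740245-17740696 (Sirt6 fold 5.66), in untreated KO. The nearest Sirt6 peak left out, chr12:19393807-19394068 (Sirt6 fold 9.60), lay 12 bp from an untreated KO peak. An overlap of 100 bp or less was the widest at 7 sites, and 14 Sirt6 peaks with no acetylation call had an H3K56ac peak within 100 bp.

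Sites were unevenly spread over chromosomes. Chromosome 14 held 28 of them, 5.16% (3.59 to 7.35) of its 543 Sirt6 peaks, against 2.19% over all chromosomes, and chromosome 19 held 18, 3.54% (2.25 to 5.53) of 508. Chromosome 9 held 8 of 798, 1.00% (0.509 to 1.97). These chromosomes were picked after their values were seen.

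The balance of KO and WT calls also varied between chromosomes. On chromosome 1 the untreated lists called 18 sites in KO and 1 in WT, on chromosome 8 they called 8 in KO and 9 in WT, and on chromosome 14 they called 17 in KO and 11 in WT. Chromosomes 1, 8 and 14 were picked after these counts were seen, so a contrast with the rest was partly given. Over chromosomes 8 and 14 together the ratio was 1.25 (0.667 to 2.37), from 25 and 20 sites. Over all the other chromosomes it was 3.96 (2.88 to 5.53), from 194 and 49 sites. Sites on chromosome 8 had a median Sirt6 fold of 16.3, against 11.3 over all sites, and all Sirt6 peaks of that chromosome had a median pileup of 12 fragments, against 10 over the list. The part of this pileup in the counts was not tested.

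**Figure D5:**
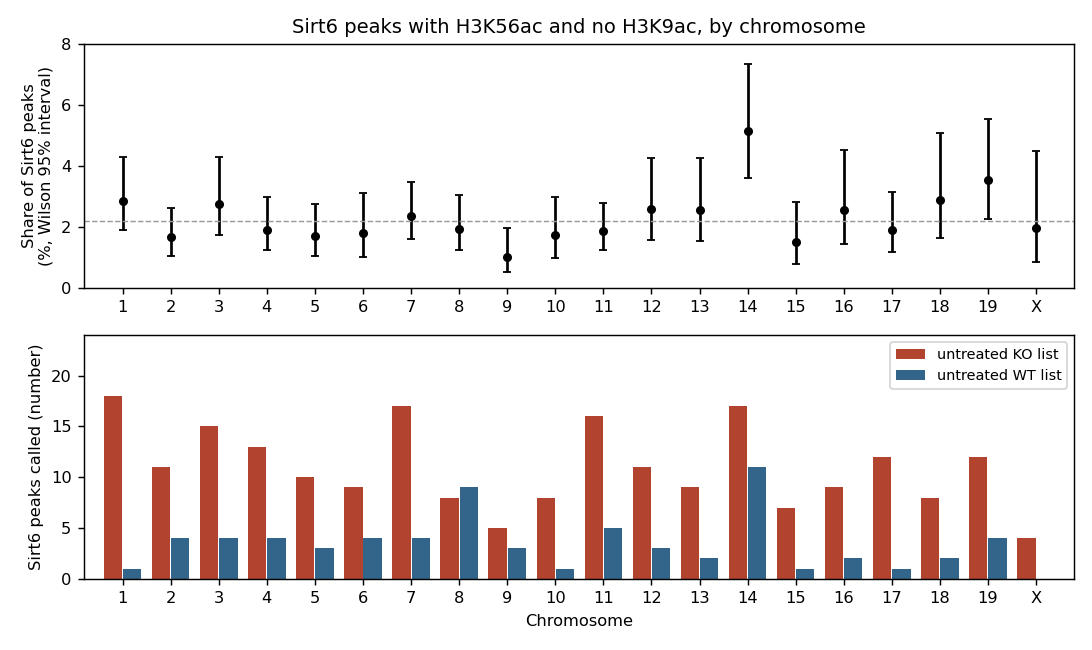
Top, share of the Sirt6 peaks of each chromosome (%) that had H3K56ac and no H3K9ac, with Wilson 95% intervals for counting error and a dashed line at the overall 2.19%; bottom, number of these sites called in the untreated KO and the untreated WT H3K56ac list. Chromosome 14 stands highest at 5.16%, and chromosome 8 is the chromosome with more WT calls (9) than KO calls (8).

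Sirt6 peaks often came in runs, and the chosen sites did so less than the peaks with neither mark. Another Sirt6 peak lay within 1000 bp of 142 sites, 44.7% (39.3 to 50.1), against 53.1% (52.2 to 53.9) of the peaks with neither mark, 40.3% of those with H3K9ac alone and 28.6% of those with both marks. Only 10 sites had another chosen site within 1000 bp.

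CMS-IP, which enriches bisulfite-treated DNA carrying 5-hydroxymethylcytosine, was deposited as windows of 500 bp compared between untreated KO and WT cells, with 1 library a genotype. By the sign of the authors' log2 fold change, 2218 windows were higher and 1562 lower in KO. A window higher in KO lay within 10000 bp of 7 sites, 2.20% (1.07 to 4.47), against 4.89% of all Sirt6 peaks. A window lower in KO lay within 10000 bp of 4 sites, 1.26%, against 1.59% of all Sirt6 peaks. Windows higher in KO were also less frequent near the other Sirt6 peaks with an acetylation call, at 2.25% with both marks and 3.24% with H3K9ac alone, against 5.19% with neither mark. Sirt6 peaks in a run can share a window, so these shares are not of independent peaks. The median distance to the next Sirt6 peak was 7438.5 bp at the chosen sites and 635 bp at the peaks with neither mark. Its part in the shares was not tested.

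There were 3 sites that overlapped a window. Windows higher in KO overlapped 2 sites, 0.629% (0.173 to 2.26), against 0.393% of all Sirt6 peaks. Windows lower in KO overlapped 1 site, 0.314% (0.0555 to 1.76), against 0.186% of all Sirt6 peaks. At chr8:72240378-72240751, called for H3K56ac in untreated WT, the authors' deposited table gives 62 IP reads in KO and 30 in WT, with 16 and 18 input reads, and a log2 fold change of 1.29. At chr2:119698614-119698865, called in RA-treated WT, the authors' deposited table gives 10 IP reads in KO and 0 in WT, with 31 and 35 input reads; no fold is given against a library at 0. At chrX:86733470-86733810, called in untreated KO, the authors' deposited table gives 37 IP reads in KO and 84 in WT, with 10 and 15 input reads, and a log2 fold change of −0.93. The adjusted p in the authors' deposited table is 1 for each of the 3, from 1 library a genotype.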

How the data were processed

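The submitters' processing notes name BWA 0.5.9, Picard, MACS2 2.0.10, edgeR and build mm9. Per the file headers, MACS2 called each library's peaks on its own, with a q limit of 0.01. The deposited lists give each peak's pileup signal, fold enrichment and −log10 q, all computed by the authors. With no control, an acetylation peak can hold reads that stack at a place in any experiment. The CMS-IP table holds the authors' read counts, edgeR's log2 fold changes and p-values, as deposited; 4 columns of per-sample values (RPKM) were not used.

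From the lists, overlaps, distances and medians were computed with Python 3.11.15, numpy 2.4.6, pandas 2.3.3 and scipy 1.17.1, and plots with matplotlib 3.10.9. A peak counted as overlapped at 1 bp or more. Shares carry Wilson 95% intervals and ratios of counts exact ones; overlapping calls make the exact ones approximate. A share of 0 has the limit that 3 counts allow. Untreated H3K56ac fragment lengths were 224 bp in KO and 175 bp in WT, and with RA 227 and 207 bp, per the file headers. The overlap and interval steps were tested on simulated data.

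The sites, lists and comparisons were chosen with earlier results of these data known. Named regions were the 10 sites of highest Sirt6 fold, the 3 of highest H3K56ac fold per list, the 3 of highest Sirt6 fold per call pattern of 10 or more sites, those at the edges of the rule and those under a CMS-IP window. The part of that rule on genes was not applied, since no annotation of the build was used here. The alternatives were a −log10 q limit of 10, overlap of 50% of the shorter peak, an H3K9ac distance of 1000 bp, lists of equal length, Sirt6 peaks joined within 1000 bp, autosomes only and each list left out.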

Additional observations from a re-analysis of the deposited data

How the results depend on the processing

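The number of sites stayed between 253 and 431 under 13 alternatives and moved by more than 1.5 times under the other 7. It was 14 with H3K56ac peaks held to a −log10 q of at least 10, 496 with H3K9ac peaks so held, 25 with all lists so held, 208 with lists of equal length, 114 without the untreated KO H3K56ac list and 535 without the untreated KO H3K9ac list. The untreated KO to WT ratio was 1.80 under the H3K56ac limit, 1.44 with all lists limited and 42.8 with lists of equal length, from 171 sites in KO and 4 in WT; elsewhere it was 2.79 to 3.96. The RA KO to WT ratio was 0.500 with all lists limited and 0.132 with equal lists (5 in KO and 38 in WT), and could not be computed under the H3K56ac limit. The RA to untreated ratio in KO was 0 under the H3K56ac limit and 0.0292 with equal lists. In WT it was 0 under the H3K56ac limit, 0.222 with all lists limited, and turned round to 9.5 with equal lists (38 with RA and 4 untreated). Equal length meant dropping the weakest peaks of each H3K56ac list down to 2063, so RA-treated WT lost none and untreated WT, with 2750, lost the most. Counts at equal length therefore depend on the original list lengths. The marks were then cut separately, as alternatives chosen after seeing the data. Cutting the H3K56ac lists alone gave 146 sites, an untreated KO to WT ratio of 59.5, an RA KO to WT ratio of 0.192, and RA to untreated ratios of 0.0420 in KO and 13 in WT, turned round. Cutting the H3K9ac lists alone gave 431 sites and moved none of the 4 ratios outside its interval, so the turn came with the cut H3K56ac lists. The median Sirt6 fold difference, 3.29 as reported, was 1.22 with Sirt6 peaks limited, 3.90 with H3K9ac limited, 4.40 with all limited, 2.43 with Sirt6 peaks joined and 4.04 without the untreated KO H3K56ac list. The median length difference, 213.5 bp as reported, was 106 with Sirt6 limited, 40.5 with H3K56ac limited, 286 joined, 267 without the untreated KO H3K56ac list, and −11 bp with all limited; the cause was not tested. Leaving out chromosomes 8 and 14, chosen after seeing the data, gave 272 sites. No paired analysis was possible because each group held 1 library. Depth (2008232 Sirt6 tags) limits which weak peaks could be called.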
